A study of Mus musculus with 19 samples.

Results

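Of 19 arrays of RNA from cultured mouse hippocampal neurons, 4 carried much less astrocyte signal than the others, 1 in each treatment. They were AP5 5, NVP 4, Ro25 3 and vehicle 3, named by treatment and by the replicate number of the sample title. They were chosen on measured values, as the array of each treatment lowest in the mean of 4 astrocyte transcripts, Gfap, Aqp4, Aldoc and Glul. They are called astrocyte-poor below and are set against the other 15 arrays with treatment as a block. The study kept dissociated neurons for 21 days in culture and exposed them for 6 h to 100 µM AP5, 100 nM NVP-AAM077 (NVP), 1 µM of the compound that the titles call Ro25, or vehicle. AP5 blocks all NMDA receptors, and NVP acts somewhat more strongly where the GluN2A subunit is present. The treatment labels give Ro25 a longer name whose number differs from that of the well-known GluN2B blocker, so which compound it was is not settled. There were 5 AP5, 4 NVP, 5 Ro25 and 5 vehicle arrays, so the astrocyte-poor arrays left 4 AP5, 3 NVP, 4 Ro25 and 4 vehicle arrays. The labels call the cells neurons, give no strain, sex or age at plating, and do not say which arrays came from the same culture. The p-values therefore reflect the spread between arrays alone, and that spread may be technical.

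Astrocytes are the glial cells that take up glutamate and potassium around synapses, convert glutamate into glutamine, store glycogen, burn fatty acids and supply neurons with antioxidant precursors and lipids. Dissociated hippocampal cultures start with neurons, neural progenitors and a few glia, and glia keep dividing unless an agent stops them, so the ratio of glia to neurons differs between preparations. Gfap encodes the intermediate filament of astrocytes, Aqp4 their water channel, Aldoc an aldolase of glycolysis and Glul glutamine synthetase, which makes glutamine from glutamate.

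Every value below is a log2 ratio of neuron RNA, labelled with Cy5 (red), over a universal mouse reference RNA, labelled with Cy3 (green), on the same array, and every difference is astrocyte-poor minus other arrays. A positive ratio means more signal from the neurons than from the reference, and ratios of different genes cannot be ranked as levels. The 4 arrays lay on 4 of the 5 slides and each in a different position on its slide. AP5 5 shared no slide with the other AP5 arrays, so within AP5 the split and the slide cannot be told apart. Their median red signal was 135.5 to 155.4, against 140.5 to 177.8 on the other arrays, and their median green signal 99.48 to 104.8, against 88.67 to 106.8. The scanner software put 24924 to 28404 probes well above background in red on astrocyte-poor arrays and 25117 to 28531 on the others, and no gene spot was saturated. The 4 arrays deviated together from the means of their treatments. Across 18273 genes outside the astrocyte lists, the correlation of these deviations was 0.636 to 0.824 over the 6 pairs of astrocyte-poor arrays (median 0.789), against a median of 0.113 (from -0.482 to 0.725) over the 84 pairs of other arrays from different treatments. Pairs of 1 astrocyte-poor and 1 other array from different treatments had a median of -0.383. The 4 were all chosen as lowest in the same markers, so their correlation is not separate from that choice. Whether the 4 share a culture or a day of preparation is not stated in the labels, and the fit treats them as separate samples. Among the other arrays, AP5 1, Ro25 1 and vehicle 2 stood apart in astrocyte markers and in Xist (described last). Results are also given without these 3 arrays, which leaves the astrocyte-poor arrays as the only ones low in Xist.

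Gfap, the marker with the widest gap, had log2 ratios of 3.64, 3.27, 3.11 and 3.24 on AP5 5, NVP 4, Ro25 3 and vehicle 3, against 5.04 to 6.46 (median 5.95) on the other 15 arrays. Aldoc stood at 1.70, 1.91, 1.48 and 1.92 on the same arrays, against 2.70 to 4.25 (median 3.64) on the others. The groups did not overlap in any of the 4 markers, which is what the choice of arrays was made on and is given without a test. The differences were -2.51 for Gfap, -1.91 for Aldoc, -1.51 for Aqp4 and -1.40 for Glul, or 5.71-, 3.76-, 2.84- and 2.64-fold. The markers remained present: Gfap had a mean spot signal of 656 to 1030 in red on astrocyte-poor arrays, against 3330 to 19400 on the others. Its green signal was only 42.5 to 48.1, against 49.5 to 86.1, so the ratio of Gfap rests on a reference near background. The mean difference of the 4 markers was -1.83 in the log ratios computed here, -2.25 in the red channel alone and -0.72 in the log ratio of the scanner software.

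**Figure D1:**
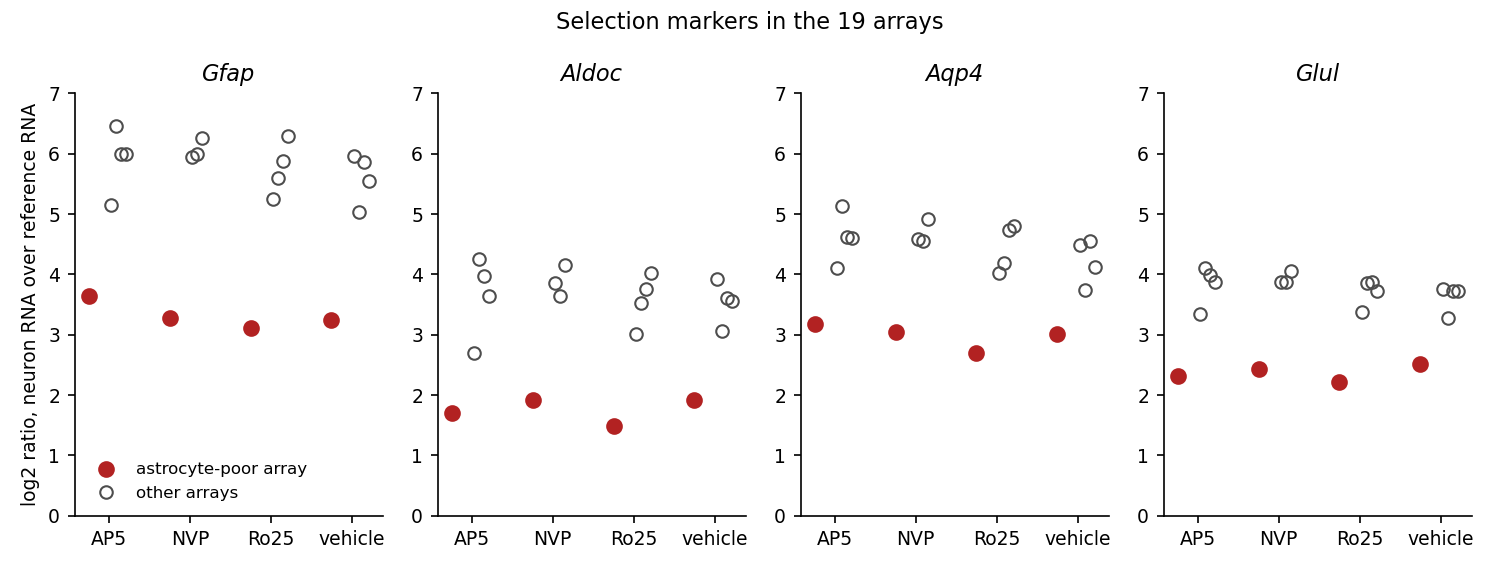
Log2 ratio of the 4 markers that chose the arrays (y axis) in each treatment (x axis). Filled red points are the astrocyte-poor arrays and open points the other arrays of the same treatment. Each red point lies below every open point of its treatment.

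The threshold was wide in each treatment. The mean of the 4 markers was 2.704 on AP5 5, and the next array of that treatment, AP5 1, had 3.821. It was 2.666 on NVP 4 with 4.518 on NVP 2 next, 2.375 on Ro25 3 with 3.917 on Ro25 1 next, and 2.673 on vehicle 3 with 3.776 on vehicle 2 next. A longer list of 44 further astrocyte genes picked the same 4 arrays. Of these 44 genes 42 were lower on astrocyte-poor arrays, with a median difference of -0.72, and in 35 of them the astrocyte-poor array was the lowest of its treatment in all 4 treatments. Cst3 (cystatin C, a secreted protease inhibitor, -1.67), Mfge8 (a secreted bridge for phagocytosis, -1.54) and Gjb6 (connexin 30, the gap junction protein of astrocytes, -1.34) had the widest gaps. Slc1a2, the main glutamate transporter of astrocytes, differed by only -0.11, and Slc1a3, the second one, by -0.69. Slc1a2 stood at 8.45, 8.49, 8.40 and 8.26 on the astrocyte-poor arrays, against 8.11 to 8.76 (median 8.52), so the groups overlapped. Chrdl1 (a secreted BMP inhibitor, 0.23) and Hsd11b1 (an enzyme that regenerates active glucocorticoid, 0.55) were the 2 genes above 0. In bulk RNA, fewer cells of a type and less RNA per cell cannot be told apart.

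Outside the 48 astrocyte genes, which were all kept out of the tests, 4950 of 19104 genes (25.9%) differed between the astrocyte-poor and the other arrays (limma, Benjamini-Hochberg adjusted p under 0.05). Of these, 2503 (13.1%) were higher and 2447 (12.8%) lower on astrocyte-poor arrays. The 48 are not all the genes that astrocytes express, and Hopx, for example, was tested. Calls among the tested genes are therefore not separate from the choice of arrays by low astrocyte signal. The larger changes were mostly decreases: 92 genes were higher and 445 lower by 1.5-fold or more, and 9 were higher and 107 lower by 2-fold or more. Of the genes called lower, 43 were not well above background on any astrocyte-poor array and entered the test only through the others. The near balance of higher and lower calls depended on the normalization. With median centring in place of loess, 342 genes were called higher and 2344 lower (12.7% of calls higher, against 50.6%), and with marked spots kept in the background fit 608 were higher and 1259 lower (32.6%). Without AP5 1, Ro25 1 and vehicle 2, 6948 genes were called, 3747 higher and 3201 lower. Each of 3 astrocyte-poor arrays moved the count by over 1.5 times: 3216 genes were called without AP5 5, 3297 without NVP 4 and 3207 without Ro25 3.

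The difference had the same direction in each treatment for 97.9% of the called genes and 49.2% of all genes tested, where the calls rest on these same differences. It had the same direction within the slide for 97.5% of the called genes and 57.1% of all tested, over the 3 treatments in which the astrocyte-poor array shared a slide with other arrays of its treatment, and for 536 of the 537 genes at 1.5-fold or more. The astrocyte-poor array lay below every other array of its treatment in all 4 treatments for 1700 genes (8.9% of those tested) and above for 1378 (7.21%). No gene passed the test for a difference that varied between treatments (limma F test, 387 genes at an unadjusted p under 0.05), a comparison with 1 astrocyte-poor array per treatment. The reference channel alone gave 44 calls (0.23%), against 4594 (24%) in the neuron channel alone.

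The 15 largest decreases were led by Bcas1. Bcas1, a gene of oligodendrocytes that are starting to make myelin, had log2 ratios of 1.85, 1.64, 1.36 and 2.00 on AP5 5, NVP 4, Ro25 3 and vehicle 3, against 3.04 to 4.97 (median 4.11) on the other arrays. It fell 5.17-fold (log2 difference -2.37 ± 0.31, SE, n = 4 and 15, adjusted p = 1.85e-05) on its brightest probe, while its other probe gave -1.27. Over the other alternatives the difference ran from -3.06 to -1.33, and the green signal of this probe was only 62.5 to 70.5 on astrocyte-poor arrays and 70.3 to 131 on the others. Every astrocyte-poor array was below every other array in the ratio. Tafa1, which encodes a small secreted protein of the brain, stood at 1.63, 1.71, 1.85 and 1.60, against 3.19 to 4.15 (median 3.78), and was 4.00-fold lower (-2.0 ± 0.15, adjusted p = 4.46e-08). Its 3 probes gave differences of -2.0 to -1.16. Igfbp5, a secreted binding protein for insulin-like growth factors, had the values 0.58, 0.40, 0.47 and 0.49, against 1.85 to 2.46 (median 2.01), and was 3.04-fold lower (-1.60 ± 0.10, adjusted p = 8.45e-09). In both genes a gap separated the groups. The second probe of Igfbp5 gave -0.11.

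Hopx, a homeodomain protein of neural stem cells and astrocytes, reached 1.86, 1.48, 1.51 and 1.54 on astrocyte-poor arrays, against 2.63 to 3.75 (median 3.44), a 3.48-fold decrease (-1.80 ± 0.17, adjusted p = 4.70e-07). C4b, a complement component, was 3.85-fold lower, Entpd2, an enzyme that breaks down extracellular ATP, 3.59-fold, and Plpp3, a lipid phosphate phosphatase, 3.30-fold. Fibin, a secreted protein, was 3.44-fold lower. Cav1, the scaffold of caveolae, fell 4.03-fold on its brightest probe, with a difference of -2.01, while its other probe gave -0.14. The ratio of Cav1 was -6.84 to -6.68 on astrocyte-poor arrays and -6.23 to -4.14 on the others, so the universal reference gave the stronger signal on every array. Glycam1 (a mucin-like adhesion ligand, 3.24-fold), Angptl4 (a secreted inhibitor of lipoprotein lipase, 3.14-fold), the linker histone H1f2 (3.13-fold), Osmr (the receptor for oncostatin M, 2.99-fold), S100a16 (a calcium-binding protein, 2.93-fold) and Lyn (a Src family kinase, 2.87-fold) completed the set. A second probe gave -0.33 for Osmr and -0.96 for Lyn.

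The 15 largest increases were smaller. Cox6a2, a subunit of cytochrome c oxidase best known from muscle, stood at -0.65, -0.56, -0.47 and -0.53 on AP5 5, NVP 4, Ro25 3 and vehicle 3, against -2.45 to -1.40 (median -2.08) on the other arrays. It was 2.75-fold higher (1.46 ± 0.16, SE, n = 4 and 15, adjusted p = 2.03e-06), and no array of either group reached into the other. Cort, which encodes the interneuron peptide cortistatin, had 1.71, 1.46, 1.62 and 1.39, against 0.20 to 1.08 (median 0.38), and was 2.14-fold higher (1.10 ± 0.11, adjusted p = 1.02e-06). Lgi2, a secreted protein of the family that links synaptic receptors across the cleft, had 4.54, 4.60, 4.67 and 4.60, against 3.37 to 3.90 (median 3.51), and was 2.04-fold higher (1.03 ± 0.09, adjusted p = 1.26e-07). The spread of Lgi2 was small in both groups. Glra2, a glycine receptor subunit, was 2.06-fold, Skor1, a transcriptional corepressor, 2.05-fold, Ptger3, a prostaglandin E receptor, 1.95-fold, and Klk8, the secreted protease neuropsin, 1.91-fold higher. Clca1 (a secreted regulator of chloride channels, 2.22-fold), Blnk (an adaptor of B cell signalling, 2.36-fold, measured on 18 arrays), Col22a1 (a collagen, 2.05-fold), Coch (a secreted protein of the inner ear, 1.87-fold), Ier5 (an immediate early gene, 1.93-fold), Cdkl1 (a kinase, 1.87-fold), 2310002F09Rik (2.11-fold) and 1700125H20Rik (1.91-fold) made up the rest. For Clca1, Blnk, Skor1, Col22a1, Ptger3 and 1700125H20Rik the groups overlapped across treatments and separated only within each treatment, and Klk8 was well above background on 12 of the other 15 arrays. A second probe gave 0.04 for Col22a1, 0.58 for Lgi2 and 0.42 for Ptger3.

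**Figure D2:**
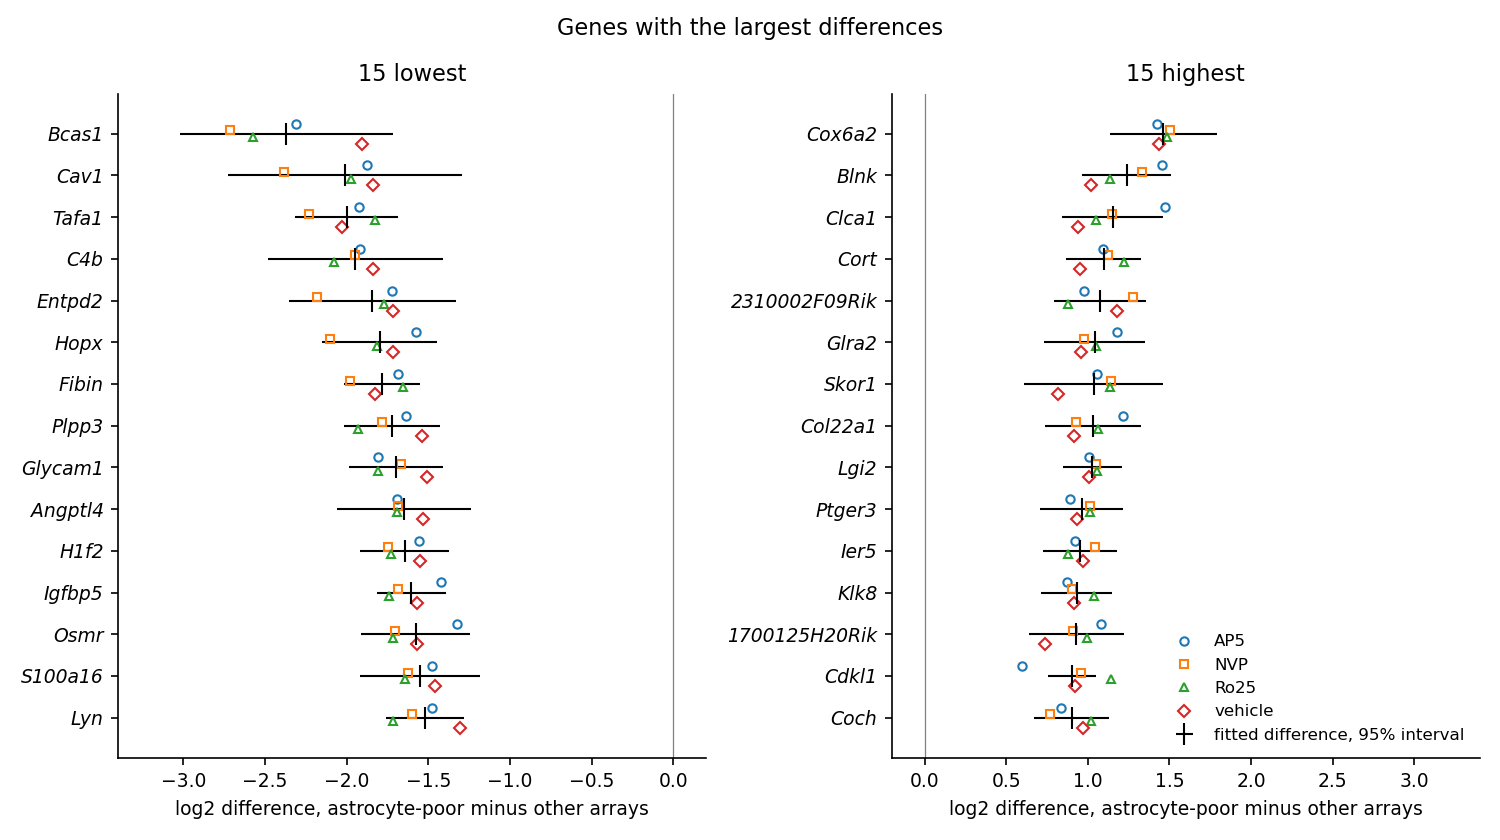
Log2 difference (x axis) of the 15 genes with the largest decreases and the 15 with the largest increases. Vertical ticks and bars give the fitted difference and its 95% interval, and symbols give the astrocyte-poor array minus the mean of the other arrays of 1 treatment. All 4 symbols of each gene lie on the same side of 0, from -2.37 (fitted) for Bcas1 to 1.46 for Cox6a2.

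The probes on which the strongest statements rest lie, in the mm8 coordinates of the array files, at chr2:170038694-170038753 for Bcas1, chr6:96622566-96622625 for Tafa1, chr1:72791462-72791521 for Igfbp5, chr5:78162210-78162269 for Hopx, chr7:127996794-127996853 for Cox6a2 and chr4:147969198-147969257 for Cort. Of the 537 called genes at 1.5-fold or more, 198 had another usable probe, and in 187 of these (94.4%) the second brightest probe differed in the same direction, in 143 (72.2%) past the threshold.

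Many genes of the oligodendrocyte lineage and of radial and reactive glia were lower on the same arrays. The radial and reactive lists hold genes that astrocytes also express, such as Hopx. Decreases in these lists are therefore not separate from the choice of arrays by low astrocyte signal. Of 18 tested genes of the oligodendrocyte lineage, 10 were lower and none higher (55.6%, against 12.8% of all genes tested), with a list median of -0.34 beside 0.02 over all genes. Cldn11, a tight junction protein of myelin, had 0.79, 0.78, 0.66 and 0.81 on astrocyte-poor arrays, against 1.24 to 3.08 (median 1.76), and fell 2.22-fold (-1.15 ± 0.31, adjusted p = 0.0104). The groups were apart. Cnp (a myelin enzyme, 2.12-fold) fell too, and so did the lineage's transcription factors Sox10 (1.48-fold) and Olig2 (1.32-fold). Enpp6, an enzyme of newly formed oligodendrocytes, was not well above background on any of the 4 astrocyte-poor arrays and was so on 13 of the other 15. It is counted among the 10 and entered the test only through the other arrays. The summed level of the list, as the mean log2 ratio, was 1.192 to 1.362 on astrocyte-poor arrays and 1.565 to 2.294 on the others. It was thus lower on all 4 astrocyte-poor arrays, and its part in the other results was not tested.

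Of 17 genes of radial and immature glia, 9 were lower (52.9%) and 1 higher (5.88%), with a median of -0.34. Vim, the intermediate filament vimentin, had -3.78, -3.62, -3.82 and -3.45, against -3.21 to -2.79 (median -2.93), and fell 1.66-fold (-0.73 ± 0.06, adjusted p = 1.54e-07). Dbi, which encodes the acyl-CoA binding protein that also acts on GABA-A receptors, fell 1.95-fold, Id4 1.75-fold, Pax6 1.40-fold and Hes5 1.39-fold. The groups did not overlap for Vim, and Slc16a1, a lactate transporter, was the gene that was higher (log2 difference 0.28). Of 24 genes that reactive glia raise, 13 were lower (54.2%) and none higher (median -0.39). Among them were Srgn (serglycin, 2.71-fold), Vcam1 (an adhesion molecule, 1.81-fold) and Cd44 (the hyaluronan receptor, 1.68-fold), beside Osmr. The probes of Cd44 gave -0.94 to 0.10 and those of Vcam1 -0.86 to -0.31. The medians of these 3 glial lists kept their sign under median centring, scaling to 1 spread, the red channel alone, the deposited log ratios and the authors' table.

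Markers of other cell types gave mixed counts, set here beside 13.1% higher and 12.8% lower over all genes. Of 14 microglial genes 2 were higher (14.3%, near the share of all genes) and 1 lower (7.14%). The list's level was -2.497 to -2.372 on astrocyte-poor arrays and -2.672 to -2.289 on the others, which overlapped. Aif1, the calcium-binding protein IBA1 of microglia, was 1.37-fold higher and Cd68, a lysosomal protein of phagocytes, 1.20-fold higher. Of 14 endothelial and mural genes 3 were higher (21.4%) and 1 lower (7.14%). Egfl7 (log2 difference 0.23) and Rgs5 (0.33, with 0.21 on its other probe) were higher. Pdgfrb, the pericyte receptor for PDGF, was 1.57-fold lower. Of 18 fibroblast and matrix genes 6 were lower (33.3%) and none higher. They were led by Igfbp2 (1.99-fold), the proteoglycan Dcn (1.98-fold) and Serpinh1, a collagen chaperone (1.96-fold). The list median was only -0.02 and turned to 0.14 under scaling to 1 spread. Of 9 ependymal and choroid genes 5 were lower (55.6%, median -0.17), but only 1 without NVP 4 or Ro25 3, 2 without AP5 5 and 3 without vehicle 3. Rarres2, which encodes the chemoattractant chemerin, was 1.76-fold lower, while Tmem212 and Pifo, also among the 5, were not well above background on any astrocyte-poor array.

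**Figure D3:**
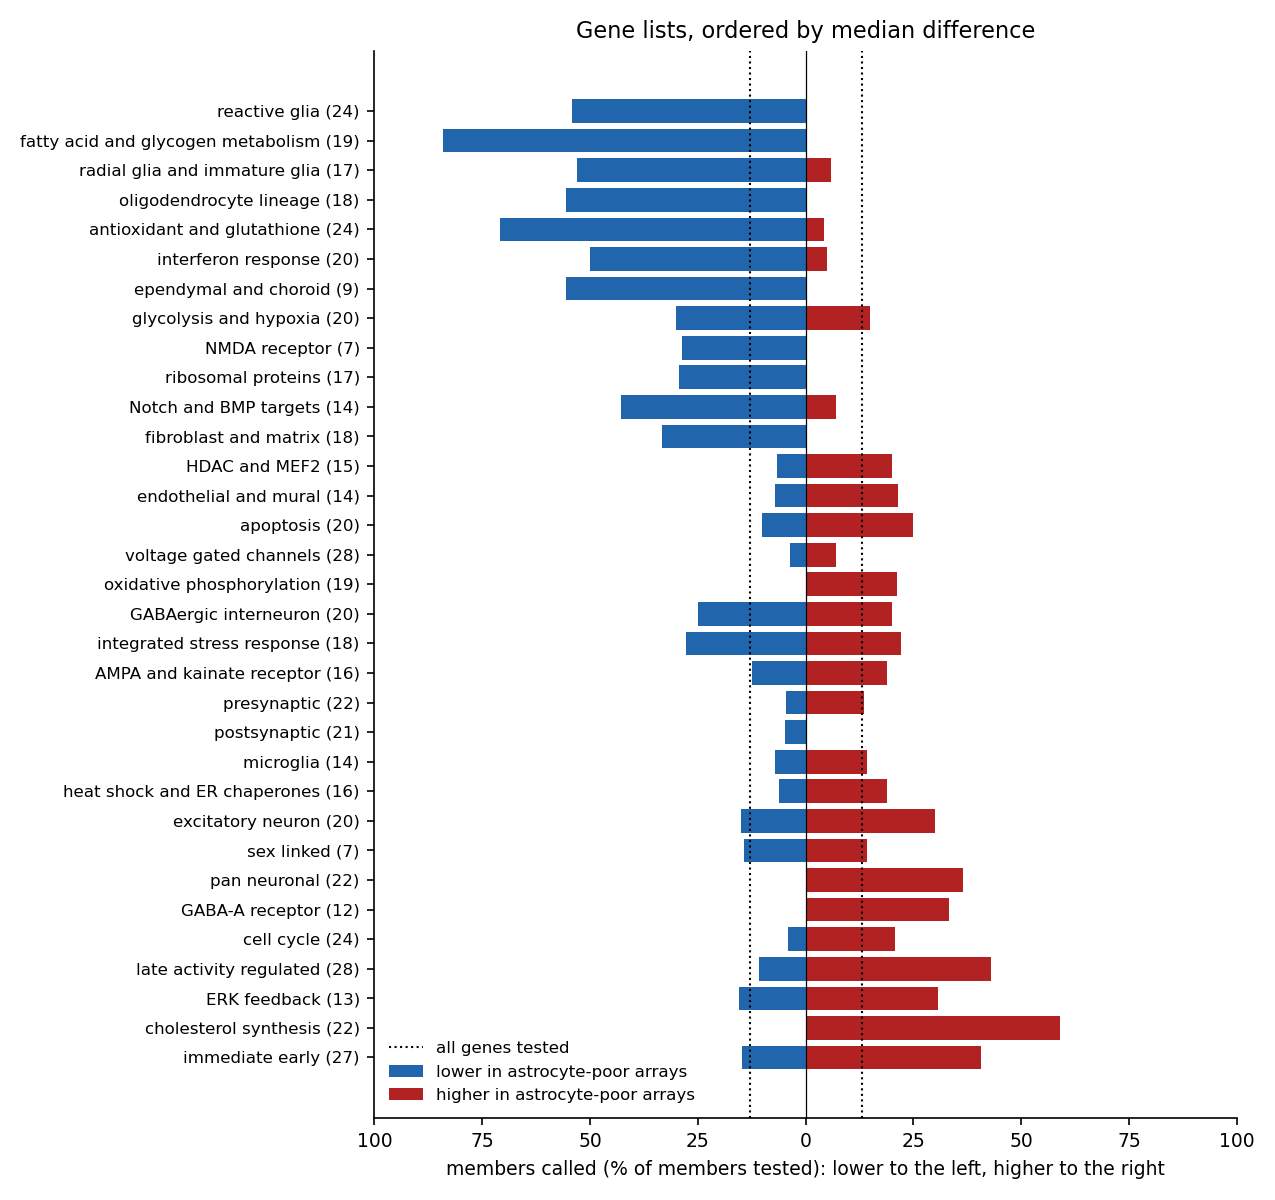
Share of the tested members of 33 gene lists (number tested in parentheses) that were called lower (blue, to the left) and higher (red, to the right) on astrocyte-poor arrays, as a percentage of members. Dotted lines give the shares over all genes, 12.8% lower and 13.1% higher. Fatty acid and glycogen metabolism reached 84.2% lower and cholesterol synthesis 59.1% higher.

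Fatty acid and glycogen metabolism, which includes tasks of astrocytes in brain tissue, held the largest share of decreases among the tested lists. The lists were chosen with earlier results of these data known, so this order is a description only. Of 19 tested genes 16 (84.2%) were lower and none higher, with a median of -0.35. As in the glial lists, the decreases are not separate from the choice of arrays by low astrocyte signal. Cpt1a, which carries long-chain fatty acids toward the mitochondria, had -2.01, -1.82, -2.02 and -1.72 on AP5 5, NVP 4, Ro25 3 and vehicle 3, against -1.17 to -0.76 (median -0.90). It fell 1.96-fold (-0.97 ± 0.07, SE, adjusted p = 2.38e-08). Acadl, the long-chain acyl-CoA dehydrogenase, fell 2.08-fold and Cpt2, the partner of Cpt1a on the inner membrane, 1.76-fold. Every astrocyte-poor array was below every other array for these 3 genes. The desaturases Scd2 (2.11-fold) and Scd1 (1.91-fold), Pdk4, a kinase that holds back glucose oxidation (1.94-fold), and the muscle and brain glycogen phosphorylases Pygm (log2 difference -0.35, well above background on 3 of the 4 astrocyte-poor arrays) and Pygb (-0.38) fell as well. Among 20 genes of glycolysis and the hypoxia response 6 were lower (30%, against 12.8%) and 3 higher (15%, against 13.1%), with a median of -0.12. The higher genes numbered 1 without any 1 of the astrocyte-poor arrays. Slc2a1, the glucose transporter GLUT1, fell 1.58-fold with values of -2.71, -2.71, -2.66 and -2.63, against -2.20 to -1.87, while Slc2a3, the neuronal transporter GLUT3, was 1.11-fold higher.

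Antioxidant and glutathione genes fell almost as widely, with 17 of 24 lower (70.8%, against 12.8% of all genes). In this list 1 gene was higher (4.17%, against 13.1%), and the median was -0.31. These decreases are not separate from the choice of arrays by low astrocyte signal. Which cells the transcripts came from was not tested. Mgst1, a membrane-bound glutathione transferase, had -1.03, -1.12, -1.30 and -1.22, against -0.18 to 0.34 (median 0.04), and fell 2.31-fold (-1.21 ± 0.10, adjusted p = 9.69e-08). Gstm1, a cytosolic transferase, fell 2.50-fold, Hmox1, which degrades haem, 2.14-fold, and Prdx6, a peroxiredoxin, 2.05-fold, although the 4 probes of Prdx6 ranged from -1.03 to -0.21. Gclm (-0.42) and Gclc (-0.18), the subunits of the enzyme that starts glutathione synthesis, were lower, and Gsr, which recycles glutathione, was 1.24-fold higher. The cystine transporter Slc7a11, a gene of the integrated stress response list that feeds glutathione synthesis, fell 1.69-fold. That list was split, with 4 of 18 genes higher (22.2%) and 5 lower (27.8%), and with 2 higher without AP5 5 or NVP 4. Asns, asparagine synthetase, was 1.40-fold higher. Of 20 interferon response genes 10 were lower (50%) and 1 higher (5%). Gbp3 (1.68-fold), Ifit3 (1.67-fold) and Irf9 (1.56-fold, -0.12 on its second probe) were lower and Mx1 (1.24-fold) higher. Without Ro25 3 the list had 6 genes lower. Of 14 Notch and BMP targets 6 were lower (42.9%) and 1 higher (7.14%). Nrarp (log2 difference -0.69) and the BMP targets Id1 (-0.73) and Id3 (-0.94) were among the lower ones.

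Some neuronal transcripts were slightly higher. Of 22 pan-neuronal genes 8 were higher and none lower (36.4%, against 13.1% of all genes), with a median of 0.13 that became -0.02 after scaling to 1 spread. The list's mean log2 ratio was 4.25 to 4.46 on astrocyte-poor arrays and 3.92 to 4.41 on the others. It was above 0 on every array, and so was the mean of the 4 astrocyte markers. A ratio above 0 therefore does not tell neuronal from glial content. Stmn2, a microtubule regulator of growing axons, had 5.45, 5.42, 5.45 and 5.26, against 4.76 to 5.10 (median 4.93), and was 1.37-fold higher (0.46 ± 0.05, adjusted p = 5.33e-06). The groups did not overlap. Gap43, a growth cone protein (0.35), Dcx, a microtubule protein of young neurons (0.33), and Nefm, the medium neurofilament (0.30), were higher by these log2 differences, although the second probe of Dcx gave 0.00. No gene of this list was called after scaling to 1 spread or with marked spots kept, and 1 was called under median centring. With 1 array left out the count ran from 4 (without NVP 4) to 10 (without vehicle 2), with 5 without Ro25 3 or vehicle 3.

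Markers of neuron classes moved in both directions. Of 20 excitatory neuron genes 6 were higher (30%) and 3 lower (15%, and 1 without NVP 4), beside 13.1% and 12.8% of all genes. The list median (0.09) fell below 0 after scaling to 1 spread (-0.04). Neurod6, a transcription factor of pyramidal neurons, was 1.49-fold higher, Slc17a6, the vesicular glutamate transporter VGLUT2, 1.37-fold, and Slc17a7, the main hippocampal one, 1.17-fold, whereas Nrgn, a calmodulin-binding protein of dendrites, was 1.19-fold lower. Of 20 GABAergic genes 4 were higher (20%) and 5 lower (25%), but 2 were higher without AP5 5, NVP 4 or Ro25 3 and 3 were lower without vehicle 3. The median of this list was 0.03, and below 0 under each other scaling tried except the deposited log ratio. The peptide Npy was 1.39-fold higher, with values of 3.15, 3.12, 3.03 and 3.00, against 2.16 to 2.87 (median 2.58). The interneuron transcription factor Lhx6 (0.44, with 0.03 on its second probe) and the GABA-synthesizing enzyme Gad1 (0.23) were also higher. Adarb2, of interneurons from the caudal eminence, was 1.59-fold lower on its brightest probe, while its other probes reached 0.02. Pvalb, parvalbumin, was 1.32-fold lower, with 2 of the 4 astrocyte-poor arrays well above background, and Sst, somatostatin, differed by 0.05 (adjusted p = 0.557). Vip, an interneuron peptide counted among the 5 lower genes, was not well above background on any astrocyte-poor array.

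Receptor and channel genes are given by list, and bulk RNA does not tell which cells their transcripts came from. Among 7 NMDA receptor genes 2 were lower (28.6%, against 12.8% of all genes). Grin2c fell 1.55-fold, and Grin2d fell by 0.22 with a call that 20 of 36 alternatives lost, while the obligatory subunit Grin1 differed by -0.01 (95% interval -0.16 to 0.15), Grin2a by -0.05 (-0.26 to 0.16) and Grin2b by -0.16 (-0.44 to 0.12). Grin2c had 0.93, 0.80, 0.70 and 0.82 on astrocyte-poor arrays, against 0.93 to 2.13 (median 1.39), so the groups met at their edge. Of 12 GABA-A receptor subunits 4 were higher and none lower (33.3% higher, against 13.1%; 1 without Ro25 3, and 2 without AP5 5 or NVP 4), led by the extrasynaptic delta subunit Gabrd (1.47-fold), while the list median of 0.13 was 0.00 after scaling. Among 16 AMPA and kainate receptor genes 3 were higher (18.8%) and 2 lower (12.5%), among 22 presynaptic genes 3 (13.6%) and 1 (4.55%), among 21 postsynaptic genes none and 1 (4.76%), and among 28 voltage-gated channel genes 2 (7.14%) and 1 (3.57%). These small counts moved with single arrays. The AMPA and kainate list had 1 gene higher without any 1 of the astrocyte-poor arrays, and its lower genes numbered 0 without AP5 5 and 1 without NVP 4 or vehicle 3. The presynaptic list had 1 higher without vehicle 3, and the channel list had 0 without Ro25 3, 1 without NVP 4 or vehicle 3 and 5 without AP5 1, Ro25 1 or vehicle 2. Cacna1g, the T-type calcium channel CaV3.1, was the exception in size, with -0.51, -0.76, -0.69 and -0.78, against -0.12 to 0.60 (median 0.27), and fell 1.90-fold (-0.93 ± 0.11, adjusted p = 7.35e-06).

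Genes that follow synaptic activity held more higher than lower calls. Of 27 immediate early genes 11 were higher (40.7%, against 13.1% of all genes) and 4 lower (14.8%, against 12.8%; 1 without Ro25 3), and the list was not tested against other genes (median 0.20, positive under every scaling tried). Ier5 had -0.76, -0.99, -1.13 and -0.95, against -2.18 to -1.21 (median -2.02). Fosl2, a partner of Jun proteins, was 1.82-fold (0.13 on its second probe), the zinc finger proteins Egr2 1.73-fold and Klf10 1.41-fold, and Arc, which drives AMPA receptor removal, 1.32-fold higher. Fos itself went the other way: it had -3.83, -3.17, -3.53 and -2.76, against -3.52 to -2.27 (median -2.77), and fell 1.46-fold (-0.55 ± 0.10, adjusted p = 0.000529). The astrocyte-poor array was the lowest of its treatment for Fos in 3 of 4 treatments. Npas4 and Nr4a1, both fast calcium-driven genes, differed by 0.14 (adjusted p = 0.365) and 0.16 (adjusted p = 0.0777). Under median centring the list had 4 genes higher and 4 lower.

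Of 28 later activity-regulated genes 12 were higher (42.9%) and 3 lower (10.7%), with a median of 0.16. Bdnf, the neurotrophin, had 1.09, 2.35, 2.49 and 2.79 on AP5 5, NVP 4, Ro25 3 and vehicle 3, against 0.44 to 2.48 (median 2.08), and was 1.32-fold higher (0.40 ± 0.08, adjusted p = 0.000785). The value on AP5 5 was the lowest of these 4. The groups overlapped across treatments, and within each treatment the astrocyte-poor array was the highest. Ptgs2, the inducible cyclooxygenase, was 1.44-fold higher and Rasgrp1, an activator of Ras, 1.39-fold. Gem, a small GTPase that holds back calcium channels, was the largest change of the list and a decrease, with -2.52, -2.69, -2.69 and -2.40, against -1.79 to -1.13 (median -1.46), a 2.16-fold fall (-1.11 ± 0.10, adjusted p = 2.02e-07). It was well above background on 3 of the 4 astrocyte-poor arrays. Among 15 HDAC and MEF2 genes 3 were higher (20%, against 13.1% of all genes) and 1 lower (6.67%, against 12.8%). Mef2c, a neuronal transcription factor that class IIa histone deacetylases repress, was 1.58-fold higher and Hdac9, a class IIa deacetylase, 1.51-fold. Hdac4, the deacetylase named in the title of the study, differed by 0.09 (95% interval -0.14 to 0.32, adjusted p = 0.583).

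Many cholesterol synthesis genes were higher. Of 22 genes 13 were higher and none lower (59.1%, against 13.1% of all genes), with a median of 0.18 that stayed above 0 under every scaling tried, and with 6 called under median centring. Sqle, squalene epoxidase, had 0.30, 0.72, 0.72 and 0.92, against -0.07 to 0.38 (median 0.27), and was 1.35-fold higher (0.43 ± 0.05, adjusted p = 6.04e-06). Hmgcs1, an early enzyme of the pathway, had 2.60, 2.92, 3.12 and 3.37, against 2.09 to 2.73 (median 2.54), and was 1.40-fold higher (0.49 ± 0.07, adjusted p = 3.66e-05). For both genes the AP5 array was the lowest of the 4 and lay within the range of the other arrays, and the astrocyte-poor array was above every other array of its treatment. Fdps, farnesyl diphosphate synthase, was 1.31-fold, Ebp, a sterol isomerase, 1.39-fold and Idi1, an isomerase of the isoprenoid steps, 1.28-fold higher.

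Sterol genes are known to be driven by SREBP factors together with NF-Y, which binds CCAAT boxes, and because 13 of the 22 members were higher their RefSeq promoter windows are shown. The SREBP genes themselves are outside the list and were looked up after the values were seen: Srebf1 was lower by 1.34 on the log2 scale (-1.34 ± 0.11, adjusted p = 9.48e-08) and Srebf2 higher by 0.17 (± 0.06, adjusted p = 0.0425). Of the 22 genes 15 had a window in the table (GRCm38.p6, from 250 bases before to 50 after the start). Sqle and Fdps had none. The 15 were not split into called and other members, so their letters are not tied to the increases. CCAAT occurred on either strand in at least 1 window of all 15 genes, against 41.1% of all genes in the table, and the sterol element TCACCCCAC in Hmgcs1 alone (1 of 15), against 0.614% of all genes. The 220 bases before the start of 3 members follow, 5′ to 3′ on the gene's strand, with CCAAT on either strand and the sterol element in capitals. Hmgcs1 lies at chr13:119690131-119690350 (plus strand), Idi1 at chr13:8885386-8885605 (plus strand) and Ebp at chrX:8193513-8193732 (minus strand). A match is a description of letters and not a binding site. Only the exact letters were searched, so variants of the sterol element were not counted.
Hmgcs1: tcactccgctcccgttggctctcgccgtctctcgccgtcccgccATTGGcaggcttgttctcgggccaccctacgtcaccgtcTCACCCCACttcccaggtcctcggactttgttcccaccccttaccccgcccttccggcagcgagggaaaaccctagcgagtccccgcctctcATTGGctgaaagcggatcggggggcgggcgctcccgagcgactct
Idi1: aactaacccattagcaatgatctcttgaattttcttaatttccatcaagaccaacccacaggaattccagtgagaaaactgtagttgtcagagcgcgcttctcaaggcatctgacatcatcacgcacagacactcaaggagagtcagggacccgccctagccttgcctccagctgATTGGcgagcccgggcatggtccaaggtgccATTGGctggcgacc
Ebp: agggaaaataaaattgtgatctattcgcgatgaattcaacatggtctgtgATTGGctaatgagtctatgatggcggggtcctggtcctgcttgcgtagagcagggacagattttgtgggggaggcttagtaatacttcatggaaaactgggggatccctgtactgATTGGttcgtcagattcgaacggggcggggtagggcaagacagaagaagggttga
In each of the 3 stretches the CCAAT letters appear at 2 places, both on the opposite strand (ATTGG), and the longer capital run of Hmgcs1 is the sterol element.

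The other lists can be given by their counts, beside 13.1% higher and 12.8% lower over all genes. Of 13 genes of ERK feedback 4 were higher (30.8%; 2 without NVP 4) and 2 lower (1 without AP5 5, NVP 4 or Ro25 3), with the phosphatase Dusp6 1.37-fold higher and Etv4, a transcription factor, 1.51-fold lower. Of 24 cell cycle genes 5 were higher (20.8%) and 1 lower, but 2 were higher without AP5 5 or NVP 4, 3 without Ro25 3 or vehicle 3, 8 without Ro25 1 or vehicle 2 and 11 without AP5 1. Of 19 genes of oxidative phosphorylation 4 were higher (21.1%) and none lower, with 2 higher without AP5 5 and 1 without NVP 4. Of 16 chaperone genes 3 were higher (18.8%) and 1 lower, with 1 higher without AP5 5 or NVP 4 and 5 without Ro25 1 or vehicle 2. Of 20 apoptosis genes 5 were higher (25%) and 2 lower, with 3 higher without AP5 5, NVP 4 or Ro25 3 and 1 lower in 12 of the 19 fits with 1 array left out. The medians of these lists lay between 0.01 and 0.14. Of 17 ribosomal protein genes 5 were lower (29.4%; 1 without AP5 5, NVP 4 or Ro25 3) and none higher (median -0.07), and none of these was called under median centring, under scaling to 1 spread or with marked spots kept.

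A second comparison used only the arrays that were not chosen for a low level. In the other 15 arrays the mean of the 4 markers ran from 3.776 to 4.992. Each gene was fitted with a slope on that mean and treatment as a block. The lowest means were those of AP5 1, Ro25 1 and vehicle 2, which were also low in Xist (described below). Xist itself had a called slope of 2.19, so the marker slope and the grouping by Xist overlap. Both comparisons use these 15 arrays, so their values are set side by side and no overlap is counted. Of 19104 genes 2182 (11.4%) had a slope past the threshold, 1069 (5.6%) rising and 1113 (5.83%) falling with the markers. The number of calls leaned on single arrays: 575 were left without AP5 1, 1142 without AP5 2, 1444 without Ro25 1, 1399 without vehicle 1 and 1125 without vehicle 2. Without AP5 1, Ro25 1 and vehicle 2 together there were 2465 calls, 1606 rising and 859 falling. Median centring left 8 falling slopes among 1022 calls.

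Slopes by gene list are set beside 5.6% rising and 5.83% falling over all genes. Their list counts were not refitted with arrays left out. Slopes on the marker mean rose for 6 of 18 oligodendrocyte genes and 8 of 24 reactive glia genes. They also rose for 8 of 24 antioxidant genes and 6 of 19 fatty acid and glycogen genes. Slopes fell for 1 antioxidant gene and for none in the other 3 lists. They fell for 9 of 27 immediate early genes and 9 of 28 later activity-regulated genes, and rose for 1 and 2 of them. Bcas1, which was lower by 2.37 on astrocyte-poor arrays, rose by 1.59 per log2 unit of the marker mean (adjusted p = 0.00255), Cav1 by 2.02 (adjusted p = 2.74e-05) and Hopx by 0.91 (adjusted p = 0.00029). Some of the largest differences had no called slope. Igfbp5 had a slope of -0.07 (adjusted p = 0.814), Fibin of 0.21 (0.458), Tafa1 of 0.29 (0.465), Cacna1g of 0.01 (0.985) and Adarb2 of -0.44 (0.191), and Cdkl1, higher on astrocyte-poor arrays, of -0.04 (0.798). In these genes the 4 arrays differed from the rest while the slope among the other 15 did not pass the test. In the sterol list, with 13 genes higher on astrocyte-poor arrays, the median slope was 0.11, with 5 genes rising and 2 falling. Sqle had a slope of -0.08 (0.511) and Fdps of 0.00 (0.988), while Nsdhl, a sterol dehydrogenase 1.23-fold higher on astrocyte-poor arrays, rose with the markers (0.19, 0.0436). Ebp (-0.36, 0.00281) fell with the markers.

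**Figure D4:**
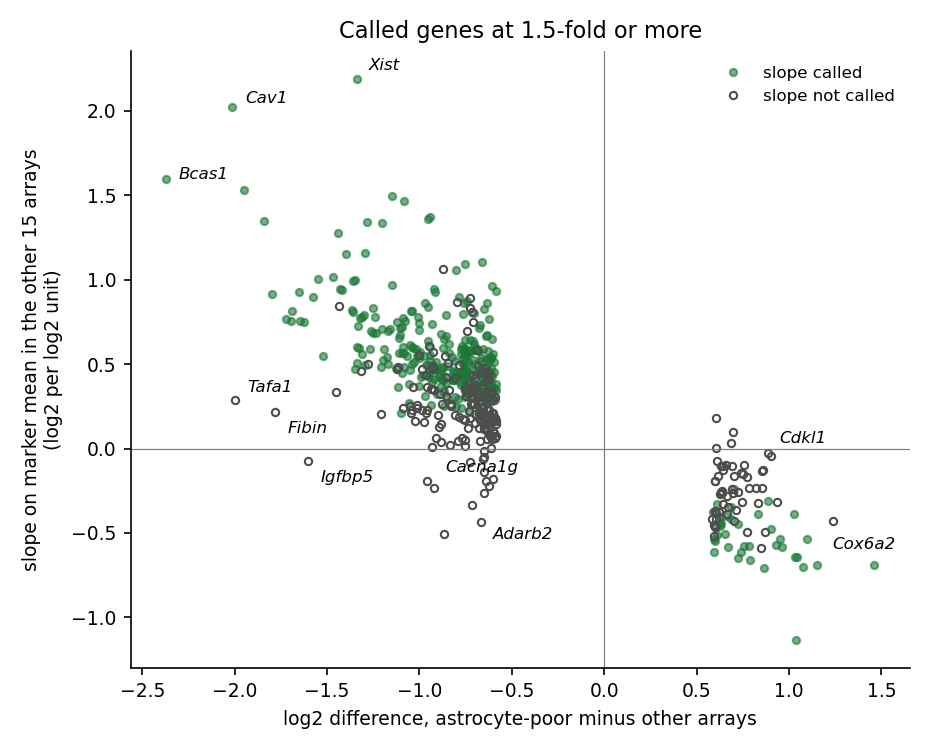
Each point is 1 of the 537 called genes at 1.5-fold or more. The x axis gives the log2 difference between astrocyte-poor and other arrays, the y axis the slope of the gene on the marker mean within the other 15 arrays, and filled green points have a called slope. Tafa1, Fibin, Igfbp5, Cacna1g and Cdkl1 have slopes between -0.07 and 0.29, and Cav1 has a slope of 2.02.

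Some transcripts of the sex chromosomes differed between the arrays as well. Xist, the RNA that silences 1 X chromosome in female cells, had -2.97, -2.85, -2.90 and -2.87 on AP5 5, NVP 4, Ro25 3 and vehicle 3. It had -3.23 on AP5 1, -3.52 on Ro25 1 and -3.29 on vehicle 2, and -1.37 to -0.82 on the remaining 12 arrays. The astrocyte-poor arrays were thus alike in Xist and below these 12 arrays, yet above the 3 arrays that came next in astrocyte markers. The difference over all 19 arrays was -1.34 ± 0.44 (adjusted p = 0.0312), and 1 of 4 probes gave -0.06. The Xist call was lost without any 1 of the astrocyte-poor arrays (adjusted p = 0.0636 to 0.116). Eif2s3y, a Y-linked translation factor gene, had 1.53, 1.59, 1.64 and 1.56 on astrocyte-poor arrays, 1.40 to 1.5 on those 3 arrays and 0.62 to 1.14 on the 12, and was 1.44-fold higher (0.53 ± 0.12, adjusted p = 0.0038). Of the other Y-linked genes, Ddx3y differed by 0.40 (adjusted p = 0.0867), Uty by 0.11 (0.395) and Kdm5d by 0.14 (0.35). The share of male and female tissue in each culture is not given in the labels and its part in the other results was not tested. All 121 named genes kept their direction and their side of the threshold when AP5 1, Ro25 1 and vehicle 2 were left out. In that fit the astrocyte-poor arrays were the only arrays low in Xist. It therefore cannot tell the split from the difference in Xist.

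**Figure D5:**
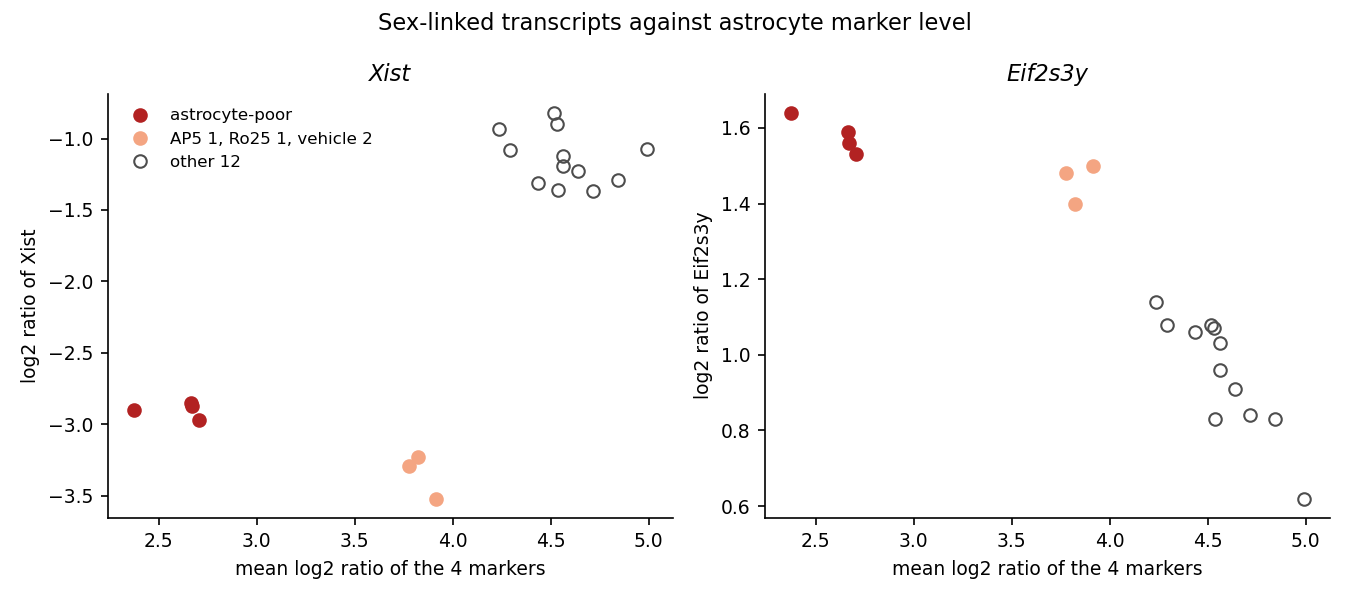
Log2 ratio of Xist and of Eif2s3y (y axes) against the 4-marker mean of log2 ratios (x axis), 1 point per array. Red points are the astrocyte-poor arrays, light points AP5 1, Ro25 1 and vehicle 2, and open points the other 12. The light and red points share low Xist (-3.52 to -2.85) but differ in marker level.

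The study set each antagonist against vehicle, and these comparisons were run with and without the 4 astrocyte-poor arrays. AP5 against vehicle gave 2964 called genes (15.5%) over the 15 other arrays and 3442 (18%) over all 19, with 1816 and 2059 of them higher in AP5. With all 19 arrays and the marker mean as a covariate, 5629 genes were called. All 4 AP5 arrays left among the 15 lay on 1 slide that held no other treatment, so AP5 and slide cannot be told apart there. With slide as a block, neither NVP nor Ro25 gave a called gene over these arrays (limma, 1025 and 555 genes at an unadjusted p under 0.05). NVP against vehicle gave no called gene over either set (limma, 1501 genes at an unadjusted p under 0.05 over 15 arrays and 1585 over 19) and 3 with the covariate. Ro25 against vehicle gave 1 (0.00522%) over 15 arrays, none over 19 (1176 at an unadjusted p under 0.05) and 3 with the covariate. The 3 comparisons share their vehicle arrays.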

How the data were processed

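Per the labels' protocols, total RNA of the neurons was labelled with Cy5 and a commercial universal mouse reference with Cy3, and both were hybridised to each array. Per the file headers, the deposited files hold red and green spot intensities and a log10 ratio from Agilent Feature Extraction 9.5.3.1, while the submitters' processing notes name version 11.0. The authors also deposited a table of log2 ratios for 20674 probes, whose correlation with the ratios computed here was 0.9986 to 0.9998 over the arrays. Its further normalization is not given in the sources used here.

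From mean spot intensities, normexp background correction (offset 50), removal of spots marked by the scanner software and loess within each array gave log2 ratios of red over green (limma 3.58.1, R 4.3.3). Of 41174 probes, 28653 were kept, those whose red signal 4 or more arrays showed well above background, and the brightest probe stood for its gene. Probes were named through accessions (23374), symbols (6733) or synonyms (2919) in RefSeq of GRCm38.p6, and 8148 kept the name of the file. Genes needed a value on all 4 astrocyte-poor arrays and on at least 2 other arrays of each treatment, which left 19152. Positions are in mm8.

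Each gene was fitted with treatment as a block and the split as the term of interest (lmFit and eBayes), with Benjamini-Hochberg adjustment at 0.05 over all 19104 tested genes. The 48 astrocyte genes were described only. Named genes were the 15 largest changes in each direction among called genes that have an official symbol and whose astrocyte-poor array lay beyond every other array of its treatment in all 4 treatments, and up to 3 genes of smallest p in each of the 33 tested lists, 121 in all. Other list members named in the text, such as Pygm, Nefm and Slc2a3, were picked for their role after their values were seen, and a few genes that count in their lists are not reported here. The arrays, members and lists were chosen with earlier results of these data known. The fit of the split was tried on simulated data with independent noise and the split held fixed. That trial does not cover the choice of arrays by their markers or the correlation between the 4 arrays. The number of arrays limits the precision, and the median standard error of a difference was 0.0602 on the log2 scale.

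Replicate numbers did not pair arrays: over 27 pairs with the same number, the correlation of deviations from the treatment mean ran from -0.621 to 0.757 (median -0.203). Alternatives covered background, normalization, channel, filter, probe, slide, position, replicate number, variance prior and each array left out.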

Additional observations from a re-analysis of the deposited data

Results flagged for a closer look

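In 6 of 121 named genes, 1 treatment stood apart from the other 3 in the difference between the astrocyte-poor array and the mean of the other arrays (Dixon's criterion, which chance meets in about 1 in 20 groups). Entpd2 differed by -2.18 in NVP and by -1.77 to -1.72 in the other treatments. Acadl differed by -1.22 in Ro25, against -1.01 to -0.98, and Angptl4 by -1.53 in vehicle, against -1.69 in each of the others. Fosl2 differed by 0.95 in Ro25, against 0.83, Lhx6 by 0.36 in vehicle, against 0.46 to 0.47, and Cacna1d, the L-type calcium channel CaV1.3, by 0.11 in AP5, against 0.34 to 0.35. The marker mean of NVP 4, at 2.67 against 4.52 to 4.84 on the other NVP arrays, met the same criterion, which is what the choice of this array rests on.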

How the results depend on the processing

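The astrocyte-poor arrays were set against the others with 4950 called genes, 2503 higher and 2447 lower. Keeping marked spots in the background fit gave 1867, 608 and 1259, and median centring gave 2686 called and 342 higher. Slide as a fixed block gave 3302 called, 1664 higher and 1638 lower. The marker mean as a number over all 19 arrays gave 3845 higher. The mean marker difference of -1.83 was -0.72 in the deposited log ratio, -2.09 with median centring, -2.25 in the red channel and -1.57 with the probes of a gene averaged. With 1 array left out, 3207 to 6074 genes were called, 1420 to 3155 higher and 1745 to 2919 lower, and the marker difference was -1.92 to -1.78. Higher calls numbered 1420 without AP5 5, 1447 without Ro25 3 and 1552 without NVP 4.

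For the slope on the marker mean (2182 calls, 1069 rising, 1113 falling), median centring gave 1022 calls with 8 falling, scaling to 1 spread 1359 with 585 rising, the red channel 1169 with 641 rising and 528 falling, and slide as a fixed block 860 with 513 rising and 347 falling. Without AP5 1, Ro25 1 and vehicle 2, a choice made after seeing the data, 1606 slopes rose. With 1 array left out there were 575 to 2946 calls, 395 to 1436 rising and 180 to 1510 falling. Rising slopes numbered 395 without AP5 1, 570 without AP5 2 and 592 without vehicle 2. A split that varied between treatments was called for 31 genes in the red channel, 2 with no filter on dim probes and 0 to 2 with 1 array left out.

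With replicate number as a block, which the numbers do not warrant as a pairing, the split gave 4295 calls (2029 higher, 2266 lower), AP5 against vehicle over 15 arrays 1495 and Ro25 against vehicle 0. AP5 against vehicle gave 1811 calls after scaling, 1824 in the red channel, 5629 with the marker mean as a covariate and 2027 to 3066 with 1 array left out. NVP against vehicle gave 3 with the covariate and 0 to 4 with 1 array left out, and Ro25 against vehicle 0 after median centring or scaling, 3 with the covariate and 0 to 1 with 1 array left out. With slide as a block over 15 arrays, NVP and Ro25 against vehicle each gave 0, and AP5, alone on its slide, could not be fitted.

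Of the 121 named genes, 69 kept their direction and side of the threshold with marked spots kept, 95 with median centring and 105 with slide as a block. Among the genes reported here, the sign turned for Rgs5 (-0.05, deposited log ratio), Rps19 (0.07, authors' table) and, on the second brightest probe, Dcx (0.00). For each of these changes the cause was not tested. Reference signal near background limits the ratios of Gfap, Aqp4 and Bcas1.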
